A study of Mus musculus with 10 samples.

Results

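Cyclic nucleotide phosphodiesterases are the enzymes that break down cAMP and cGMP. The 9 genes described here (Pde1a, Pde1c, Pde2a, Pde4a, Pde4b, Pde4d, Pde7b, Pde8b and Pde9a) were chosen by name, and all 9 were found among the 29883 genes of the count table. They were measured in the nucleus accumbens (NAc), a part of the ventral striatum, of ethanol-naive male mice of the inbred strains C57BL/6J (B6) and DBA/2J (D2). There were 5 B6 and 5 D2 mice, sacrificed at 9 weeks of age, with 1 poly-A library per mouse and no treatment, transgene or engineered allele in either strain. The strains differ in ethanol-related behavior, and the comparison asks how basal phosphodiesterase mRNA differs between them. Between 96977262 and 111468080 reads per B6 mouse and between 104443243 and 116776714 per D2 mouse were counted on genes.

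In the projection neurons of the striatum, dopamine raises cAMP through D1 receptors and lowers it through D2 receptors, and nitric oxide raises cGMP. Phosphodiesterases end these signals, and each family does so in its own way. PDE1 enzymes are switched on by calcium and cleave both nucleotides, as does PDE2A, which is stimulated by cGMP. PDE4, PDE7 and PDE8 enzymes cleave cAMP, and PDE9A cleaves cGMP. PDE4 enzymes are the targets of rolipram, a classic research inhibitor.

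The tissue carried the marker genes of striatal projection neurons, whose 10 listed genes summed to 3898 to 5164 CPM (read counts divided by the scaled library size) in B6 and 3378 to 4080 in D2. Of these 10, 5 were lower in D2 and none was higher, where 9.83% of all genes were lower. B6 replicates 3 and 5 had sums of 3922 and 3898 CPM, inside the D2 range, and the other B6 mice had 4500 to 5164. The libraries differed in cortical projection neuron genes. Slc17a7, the vesicular glutamate transporter of cortical neurons, stood at 774 and 791 CPM in B6 replicates 3 and 5 and at 63.0, 57.2 and 130 CPM in B6 replicates 1, 2 and 4. In the 5 D2 mice it lay between 174 and 493 CPM. Slc17a7 made up most of the summed cortical genes in B6 replicates 3 and 5 (982 and 998 CPM). Cux2, alone among the 8 listed cortical genes, went the other way. It had 5349 and 5718 counts (scaled to a common library size) in these replicates and 6746 to 7383 in the other B6 mice. The 8 cortical genes summed to 143 to 998 CPM in B6 and 293 to 658 in D2, and 0 of the 8 passed the strain comparison in edgeR (1 at an unadjusted p under 0.05, and 0 with DESeq2). B6 replicates 3 and 5 therefore stood apart from the other B6 libraries. Without them, 6 of the 8 cortical genes were higher and 8 of the 10 striatal genes lower in D2 (edgeR), where 19.2% of all genes passed. Leaving out these replicates thus gives groups that differ in these markers. For the phosphodiesterase and pathway genes named below, strain differences are given without them where that changes a call. They are also given for some genes whose value moved with the call unchanged. Other named genes moved as well, such as Akap5 (-0.23 with all mice and -0.32 without them). In dissected tissue, fewer cells of a type and less RNA per cell cannot be told apart.

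Of the 9 phosphodiesterase genes, 6 differed between the strains (quasi-likelihood F test of edgeR, p-values adjusted by Benjamini-Hochberg over all genes, threshold 0.05). Pde9a and Pde4d were higher in D2, and Pde1c, Pde2a, Pde4b and Pde7b were lower. Over all genes in the table, 18.3% passed the same test, with 8.5% higher and 9.83% lower in D2. All 9 members had a mean of at least 1 CPM, and among the 15241 genes at that level 23.8% passed. The median log2 fold change of the 9 genes (D2 against B6) was -0.09, and that of all genes was 0.00. For 4 of the 9 genes (Pde1c, Pde4b, Pde7b and Pde9a) the values of the strains did not overlap, as was the case for 16% of all genes. Without B6 replicates 3 and 5, 7 of the 9 genes passed, because Pde4a and Pde8b were added and Pde4d was lost, and 19.2% of all genes passed.

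**Figure D1:**
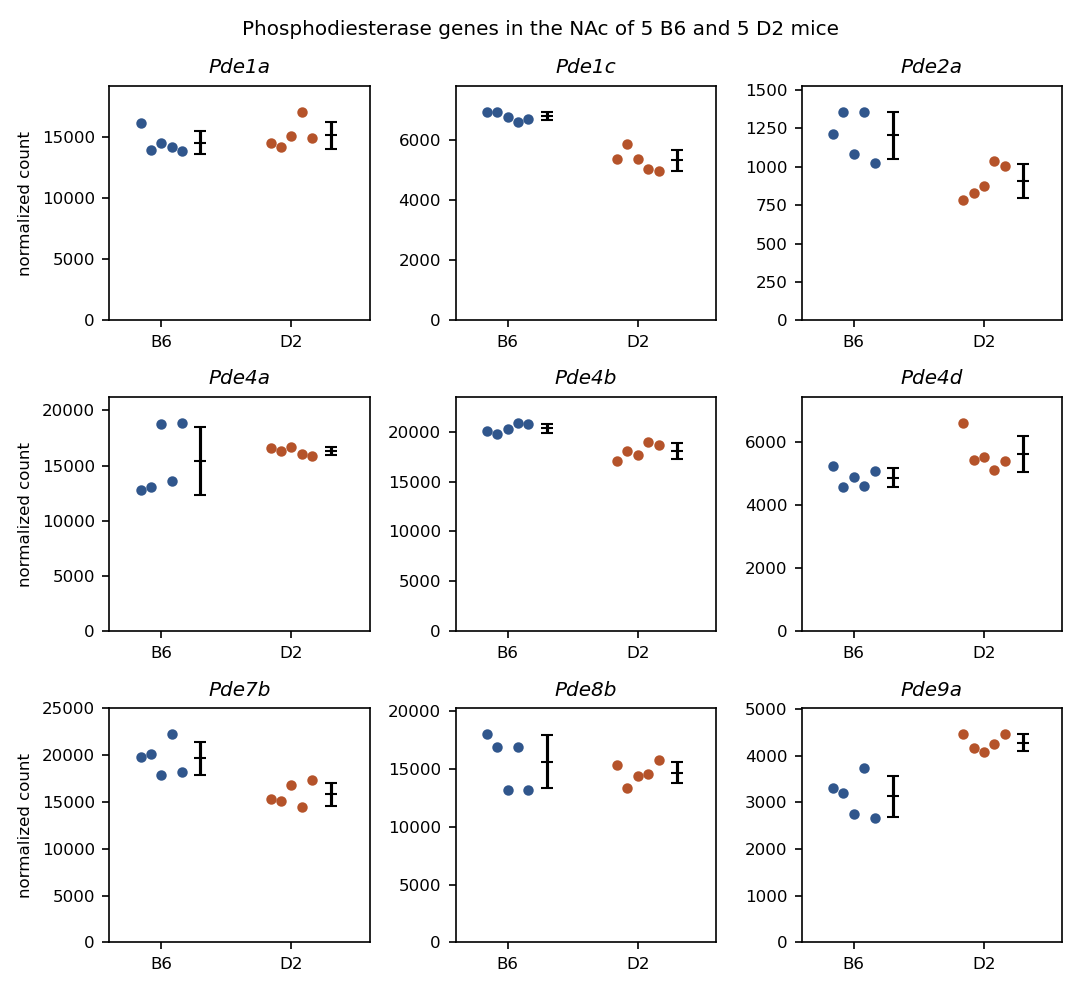
Normalized counts (y axis, from 0) of the 9 phosphodiesterase genes in each mouse, with B6 in blue and D2 in orange. Each point is 1 mouse, and the black mark beside it is the mean with the SD (n = 5). Pde1c, Pde4b, Pde7b and Pde9a separate the strains, and the B6 points of Pde4a fall into 3 low and 2 high values on either side of the D2 points.

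Pde9a (ENSMUSG00000041119, chromosome 17 of GRCm39, 31605104 to 31695284) encodes the phosphodiesterase with a high affinity for cGMP. Its normalized counts (counts scaled by TMM to a common library size) were 3300, 3204, 2740, 3727 and 2664 in B6 replicates 1 to 5. In D2 they were 4454, 4160, 4068, 4259 and 4463. The lowest D2 value exceeded the highest B6 value, and the lowest B6 values were those of replicates 3 and 5. The mean rose from 3127 ± 436 (SD, n = 5) in B6 to 4281 ± 176 (SD, n = 5) in D2, a log2 fold change of 0.45 (standard error 0.0800, edgeR adjusted p = 0.0013), or 1.37-fold. With all mice this was the largest change among the 9 genes by absolute size. It was 0.33 without B6 replicates 3 and 5 (edgeR adjusted p = 0.00099), below the changes of Pde2a (-0.53), Pde7b (-0.39) and Pde1c (-0.36) in size, and it was also below Pde2a without either of these replicates alone. It passed in all 20 alternative fits, where it lay between 0.33 and 0.68. The noncoding genes Gm9902 and Gm50138 lie on the opposite strand and share 138 and 157 bp with Pde9a exons, and they held 305 and 4 raw counts in the 5 B6 libraries together against 14993 for Pde9a.

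Of the PDE1 genes among the 9, Pde1c passed and Pde1a did not. Pde1c (ENSMUSG00000004347, chromosome 6, 56046784 to 56629472) had 6926, 6936, 6780, 6620 and 6709 normalized counts in the B6 mice. The D2 mice had 5364, 5864, 5367, 5046 and 4982. All B6 mice were above all D2 mice, and B6 replicates 3 and 5 lay within the range of the other B6 mice. The mean fell from 6794 ± 137 (SD, n = 5) to 5325 ± 350 (SD, n = 5), with a log2 fold change of -0.35 (standard error 0.0433, edgeR adjusted p = 7.3e-05), and the B6 level was 1.28-fold that of D2. Pde1c passed in all 20 alternative fits, between -0.39 and -0.32.

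Pde1a (ENSMUSG00000059173, chromosome 2, 79664364 to 79959802) ranged from 13894 to 16136 normalized counts in B6 and from 14181 to 17044 in D2. The ranges overlapped, and B6 replicate 1 was higher than all D2 mice but replicate 4. Its log2 fold change of 0.06 did not pass (edgeR adjusted p = 0.54), with a 95% interval from -0.06 to 0.18. Pde1b, the PDE1 gene that is most abundant in striatal neurons and is not among the 9, was lower in D2 by -0.24 on the log2 scale (standard error 0.0634, edgeR adjusted p = 0.017). The strains overlapped, since D2 replicate 5 (110642 normalized counts) was above B6 replicate 3 (109977). Leaving out B6 replicates 3 and 5 gave -0.31 for Pde1b (edgeR adjusted p = 0.0036).

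Pde2a (ENSMUSG00000110195, chromosome 7, 101070825 to 101162038) had 1211, 1355, 1081, 1354 and 1021 normalized counts in B6. In D2 it had 784, 829, 872, 1035 and 1005. The strains overlapped, since B6 replicate 5 was below D2 replicate 4. The log2 fold change was -0.41 (standard error 0.101, edgeR adjusted p = 0.012), with means of 1205 ± 153 and 905 ± 110 (SD, n = 5 mice each). The change was -0.53 without B6 replicates 3 and 5 (edgeR adjusted p = 0.0013). With the striatal marker level as a covariate it was -0.17 and no longer passed (edgeR adjusted p = 0.30). As given above, part of these markers were themselves lower in D2, so this fit cannot fully separate their level from strain. The level of Pde2a is uncertain, because the gene model Gm45837 on the same strand shares 3955 bp with it, 52.6% of its exon bases in the GENCODE annotation, and gene-level counting can leave reads on shared exons unassigned. Gm45837 itself held 9 raw counts in the 5 B6 and 8 in the 5 D2 libraries.

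The PDE4 genes differed among themselves. Pde4b (ENSMUSG00000028525, chromosome 4, 101944740 to 102465716) had 20085, 19744, 20278, 20854 and 20755 normalized counts in B6. In D2 it had 17042, 18044, 17672, 18989 and 18664. No D2 mouse reached the lowest B6 mouse, and the spread within each strain was small, with a coefficient of variation of 2.28% in B6 and 4.30% in D2. The log2 fold change was -0.17 (standard error 0.0357, edgeR adjusted p = 0.0045), and the B6 level was 1.13-fold that of D2. Pde4b passed in all 20 alternative fits, between -0.19 and -0.14.

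Pde4d (ENSMUSG00000021699, chromosome 13, 108586482 to 110092497) had 5243, 4594, 4895, 4610 and 5094 normalized counts in B6. In D2 it had 6617, 5440, 5533, 5112 and 5418. D2 replicate 1 was the highest mouse, and D2 replicate 4 lay below B6 replicate 1. Its log2 fold change of 0.20 (standard error 0.0652) was close to the threshold (edgeR adjusted p = 0.048). It passed in 7 of 20 alternative fits and in 2 of the 10 that left out 1 mouse, those without B6 replicate 1 and without D2 replicate 4. Without D2 replicate 1 it was 0.14 (edgeR adjusted p = 0.071), and the sign was positive in every fit.

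Pde4a (ENSMUSG00000032177, chromosome 9, 21073005 to 21124544) had 12813, 13082 and 13574 normalized counts in B6 replicates 1, 2 and 4. B6 replicates 3 and 5 had 18716 and 18842. The D2 mice had 16563, 16289, 16690, 16078 and 15861, so that every D2 mouse lay above 3 of the B6 mice and below the other 2. The coefficient of variation was 20.1% in B6 and 2.09% in D2. Over all mice the log2 fold change of 0.08 (standard error 0.106) did not pass (edgeR adjusted p = 0.69), with a 95% interval from -0.15 to 0.31. Without B6 replicates 3 and 5 it was 0.31 (standard error 0.0344, edgeR adjusted p = 4e-05). With the cortical marker level as a covariate it was 0.03 (edgeR adjusted p = 0.66), and with the striatal marker level its sign turned, to -0.18 (edgeR adjusted p = 0.22). The same B6 replicates had the high Slc17a7 values given above, and the part of cortical tissue in the level of Pde4a was not tested.

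**Figure D2:**
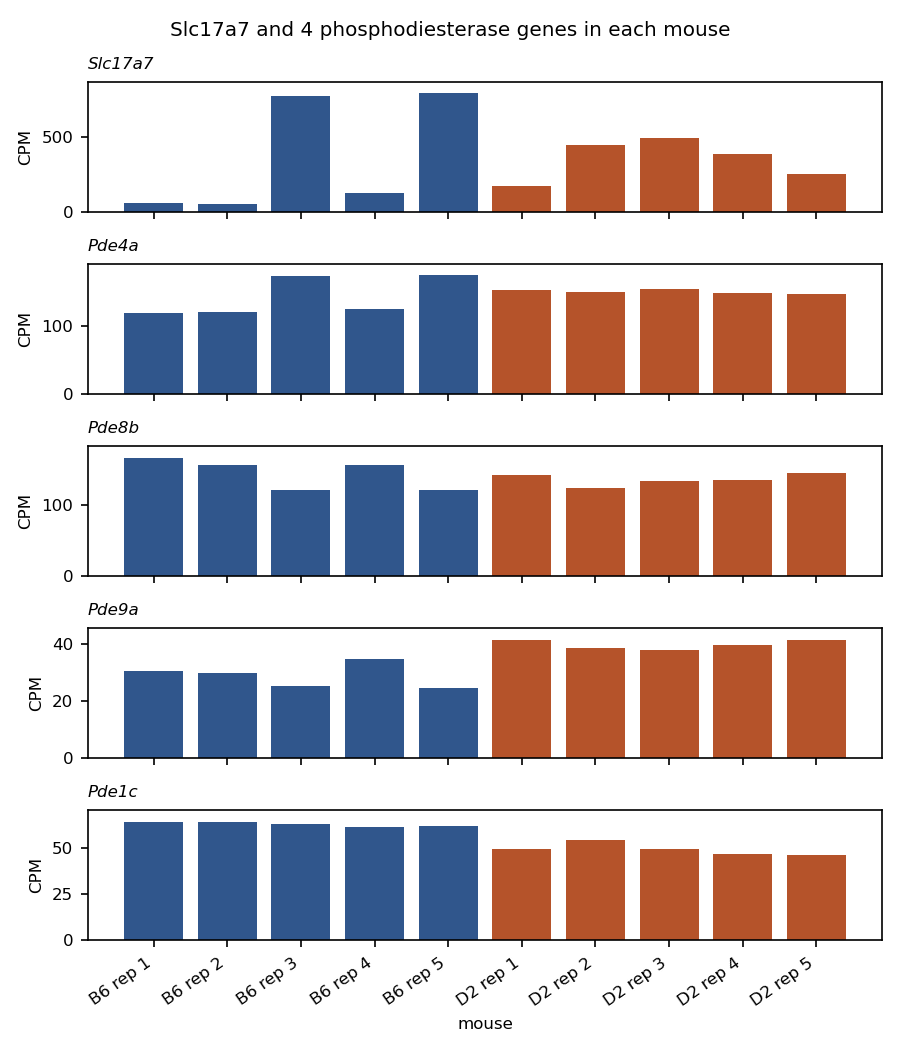
CPM (y axes, from 0) of Slc17a7 and 4 phosphodiesterase genes in each mouse (x axis), with B6 in blue and D2 in orange and 1 bar per mouse. B6 replicates 3 and 5 are the highest of the 10 mice for Slc17a7 (774 and 791 CPM) and for Pde4a, and the lowest for Pde8b and Pde9a, while Pde1c keeps its strain difference.

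Within the PDE4 genes, levels per kilobase of merged exons gave Pde4a a share of 46.4% ± 4.64 in B6 against 49.9% ± 0.975 in D2 (SD over 5 mice per strain). The share of Pde4b was 44.8% ± 3.94 in B6 and 40.0% ± 1.75 in D2. Pde4d made up 8.77% ± 0.871 and 10.1% ± 1.03. The B6 means join mice that differ, since the share of Pde4a was 42.2% to 43.6% in B6 replicates 1, 2 and 4 and 51.2% to 51.7% in replicates 3 and 5, against 48.8% to 51.1% in D2. The share of Pde4b was 47.4% to 48.0% in the former and 40.4% to 40.7% in the latter, against 37.5% to 41.8% in D2. The sum of the 3 genes per kilobase was 35.8 ± 3.58 CPM in B6 and 35.5 ± 0.143 CPM in D2, which lay within the spread of the B6 mice. These shares and sums depend on the length used. With the longest annotated transcript in place of merged exons, Pde4b (31.2 CPM per kilobase, mean of 10 mice) was above Pde4a (30.6).

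Pde7b (ENSMUSG00000019990, chromosome 10, 20273567 to 20600886) encodes a cAMP phosphodiesterase that is abundant in the striatum. The cAMP response element is the sequence bound by CREB, a transcription factor that cAMP signaling activates. The full element, the palindrome TGACGTCA, was searched in the 300 bases around the canonical start of each gene (250 before and 50 after it, GRCm39). It was found at 1 of the 9 phosphodiesterase genes, Pde7b, and at 2.73% of the 17331 protein-coding genes searched. The shorter core TGACG, searched on both strands and contained in the full element, was also found at Pde1a, and at 25.8% of the genes. The 30 bases around each match are shown because these were the only members with a match. They are read in the direction of transcription, from the reverse strand, with the matched letters in capitals.
Pde7b, chr10:20600912-20600941: actaaacccttTGACGTCActctcgaaatg
Pde1a, chr2:79869395-79869424: gtaacttcagccCGTCAttcctcagtaatt
The match of Pde7b begins at position -44 and that of Pde1a at position -39, counted from the canonical start. A match of letters does not show that a factor binds there, and the genes have other annotated starts that were not searched.

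Pde7b had 19832, 20106, 17850, 22232 and 18140 normalized counts in B6. In D2 it had 15315, 15093, 16840, 14485 and 17316. The strains did not overlap, and the lowest B6 mice were again replicates 3 and 5. The mean fell from 19632 ± 1762 (SD, n = 5) to 15810 ± 1209 (SD, n = 5), a log2 fold change of -0.31 (standard error 0.0658, edgeR adjusted p = 0.0046). Leaving out B6 replicates 3 and 5 gave -0.39 (edgeR adjusted p = 0.00053). With the striatal marker level as a covariate it was -0.12 and did not pass (edgeR adjusted p = 0.11), while with the cortical marker level it was -0.28 (edgeR adjusted p = 0.0011). Of the 10 striatal markers, 5 were also lower in D2, as given above, against 9.83% of all genes. Their sums overlapped between the strains, but a fit with this covariate cannot fully separate these markers from strain. The part of these markers in the result was not tested.

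Pde8b (ENSMUSG00000021684, chromosome 13, 95160559 to 95386844) encodes a cAMP phosphodiesterase of high affinity. It had 18033, 16881 and 16937 normalized counts in B6 replicates 1, 2 and 4, and 13164 and 13183 in replicates 3 and 5. The D2 mice ranged from 13337 to 15764, below the former and above the latter, which is the reverse of the order seen for Pde4a. The log2 fold change of -0.09 (standard error 0.0880) did not pass (edgeR adjusted p = 0.57), with a 95% interval from -0.28 to 0.10. Without B6 replicates 3 and 5 it was -0.24 (standard error 0.0512, edgeR adjusted p = 0.0060), and with the striatal marker level as a covariate its sign turned, to 0.16 (edgeR adjusted p = 0.18). The noncoding gene Gm48420 shares 600 bp with Pde8b exons on the opposite strand, and held 818 raw counts in the B6 libraries against 75195 for Pde8b.

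**Figure D3:**
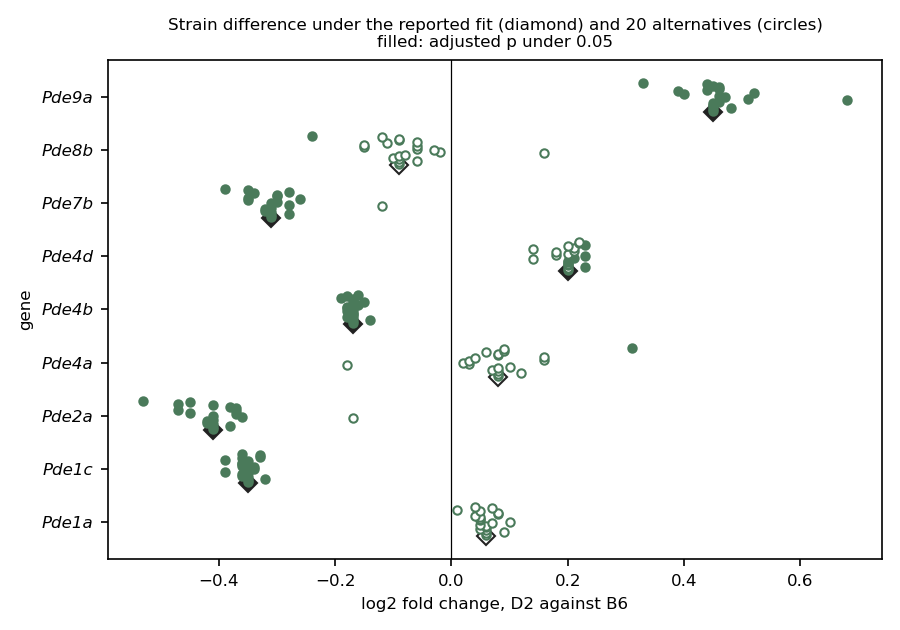
Log2 fold change of D2 against B6 (x axis) for each of the 9 genes (y axis) in the reported fit (black diamond) and in 20 alternative fits (green circles), filled where the adjusted p was under 0.05. Pde9a, Pde1c and Pde4b are filled throughout, Pde4d lies on both sides of the threshold, and Pde4a and Pde8b each have circles on both sides of 0.

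Levels were compared between genes as CPM per kilobase of merged exons. The order was the same in both strains, from Pde1a (17.9 ± 1.14 in B6 against 18.7 ± 1.37 in D2, SD over 5 mice per strain) through Pde4a, Pde8b, Pde4b and Pde7b to Pde9a, Pde4d, Pde1c and Pde2a (1.49 ± 0.189 and 1.12 ± 0.136). Over the 10 mice, the ranges of Pde1a, Pde4a, Pde8b and Pde4b each overlapped that of the next gene, the last with Pde7b, and Pde1a was above Pde4a in only 6 mice. The ranges of Pde7b and Pde9a did not overlap, nor did those of Pde9a and Pde4d or those of Pde1c and Pde2a. The level of Pde2a is uncertain because of its shared exons, and so are its last place and its distance from Pde1c. Pde4d was above Pde1c in 9 of the 10 mice. The order among the leading genes depends on the length used. With the longest transcript in place of merged exons, Pde4b and Pde7b came before Pde4a and Pde1a.

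The cAMP-specific genes (Pde4a, Pde4b, Pde4d, Pde7b and Pde8b) summed to 66.7 ± 1.12 CPM per kilobase in the B6 mice, against 62.6 ± 1.59 in the D2 mice (SD, n = 5 per strain). All B6 sums, from 65.2 to 68.2, were above all D2 sums, from 60.5 to 64.7. The genes for enzymes that cleave both nucleotides (Pde1a, Pde1c and Pde2a) summed to 22.4 ± 1.19 in B6 and 22.1 ± 1.38 in D2. This sum leaves out Pde1b (158 in B6 and 134 in D2) and Pde10a (88.3 and 69.1), which also cleave both nucleotides. Both were lower in D2, so the sums describe the 9 genes and not the whole family. The cAMP and cGMP groups likewise leave out Pde7a, Pde8a and Pde5a, among others. The cGMP-specific Pde9a made up 7.18% ± 0.876 of the summed level of the 9 genes in B6 and 10.04% ± 0.353 in D2. These sums and shares are given as a description and depend on the length used, and mRNA levels do not measure enzyme activity.

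**Figure D4:**
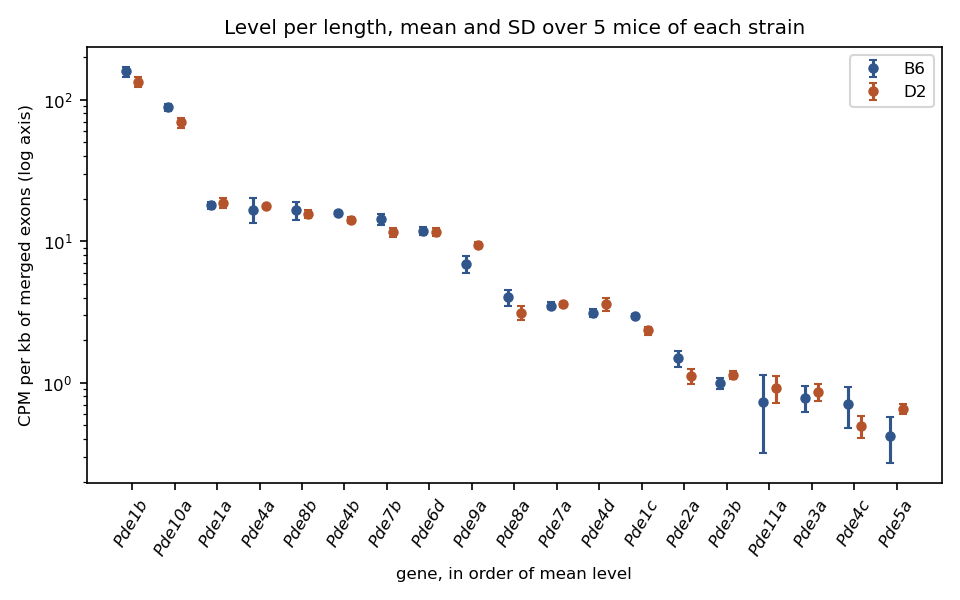
Level per length (y axis, CPM per kilobase of merged exons, log axis) of phosphodiesterase genes with a mean of at least 0.5, ordered by mean level (x axis), with B6 in blue and D2 in orange. Points are means and bars SDs over 5 mice. Pde1b and Pde10a stand above all 9 genes described here, which run from Pde1a near 18 to Pde2a near 1.3. The level of Pde2a is uncertain because of its shared exons.

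The other 15 cyclic nucleotide phosphodiesterase genes of the table give the family context, and 5 of them passed, 1 higher and 4 lower in D2, against 18.3% of all genes (23.8% of those with at least 1 CPM). The most abundant were Pde1b (158 ± 12.6 CPM per kilobase in B6 and 134 ± 10.02 in D2) and Pde10a (88.3 ± 5.14 and 69.1 ± 5.63, SD, n = 5 mice each), a striatal enzyme that cleaves both nucleotides. Pde10a was lower in D2 by -0.35 on the log2 scale (standard error 0.0599, edgeR adjusted p = 0.00097), and the values of the strains did not overlap. Pde6d, known as a carrier of lipid-modified proteins, followed in level and had a log2 fold change of -0.02 (edgeR adjusted p = 0.88). Pde8a, a cAMP-specific enzyme, was lower in D2, with -0.36 (edgeR adjusted p = 0.017), but the strains overlapped. B6 replicates 3 and 5 had its highest normalized counts (2993 and 3003), B6 replicates 1 and 4 (2343 and 2319) lay inside the D2 range of 1793 to 2370, and without replicates 3 and 5 the change was -0.25 and did not pass (edgeR adjusted p = 0.078). Pde5a, a cGMP-specific enzyme, was higher in D2, with 0.64 (standard error 0.193, edgeR adjusted p = 0.037). B6 replicates 3 and 5 had 695 and 645 normalized counts of Pde5a against 326 to 416 in the other B6 mice, and without them the change was 1.05 (edgeR adjusted p = 1.1e-05). Pde6h, a subunit known from cone photoreceptors, was nearly without reads, with 353 raw counts in the 5 B6 and 38 in the 5 D2 libraries (edgeR log2 fold change -3.32).

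**Figure D5:**
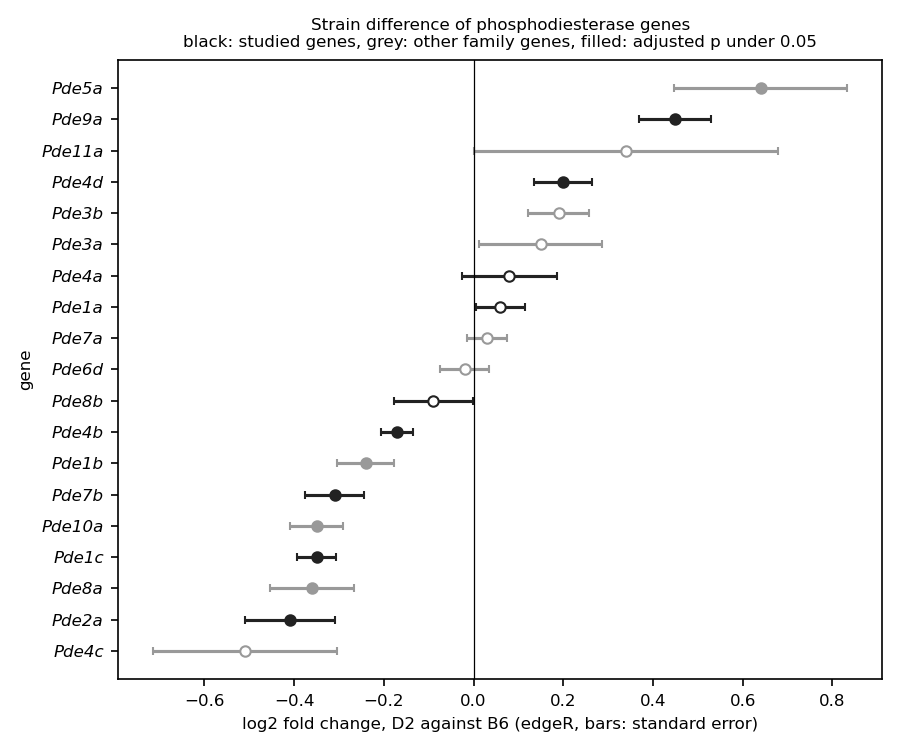
Log2 fold change of D2 against B6 (x axis) with its standard error (bars) for the phosphodiesterase genes with a mean of at least 0.5 CPM per kilobase (y axis), ordered by size. The 9 genes described here are black and other family genes grey, filled where the adjusted p was under 0.05. Pde9a (0.45) lies at the upper end of the 9, and Pde2a (-0.41) at the lower end.

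Of the 62 genes listed for the rest of the pathway, 61 were in the table (Cnga1 was not analysed here), and 12 passed, 5 higher and 7 lower in D2, against 18.3% of all genes. The adenylyl cyclases, which make cAMP, had 2 of 10 lower, Adcy5, the main striatal form (-0.30, edgeR adjusted p = 0.0027), and Adcy4 (-0.86, edgeR adjusted p = 5.5e-06). Among 8 genes for guanylyl cyclases and neuronal nitric oxide synthase, Gucy2e was lower (-1.69, edgeR adjusted p = 9.4e-09) and Npr2 higher (0.16, edgeR adjusted p = 0.0066). Of 11 genes for protein kinases A and G and their inhibitors, only Prkaca, a catalytic subunit of protein kinase A, passed (0.15, edgeR adjusted p = 0.0040). Of 14 other effectors, Hcn4 (0.38), a channel gated by cyclic nucleotides, was higher, and Rapgef3 (-0.52), a cAMP-activated exchange factor, and Popdc2 (-0.66) were lower. Popdc2 had few reads, with 180 raw counts in the 5 B6 and 124 in the 5 D2 libraries. Of 18 genes for proteins that bind, activate or anchor phosphodiesterases, Arrb2 (0.18) and Akap11 (0.11, not passing without B6 replicates 3 and 5, edgeR adjusted p = 0.12) were higher, and Arrb1 (-0.16) and Akap5 (-0.23) lower. The beta-arrestins Arrb1 and Arrb2, which bring PDE4 enzymes to receptors, thus changed in opposite directions.

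The profile of each of the 6 genes over the 10 mice was set against those of 15189 other genes with a mean of at least 1 CPM, by the root-mean-square difference of log2 levels after centring each gene on its own mean. Closest to Pde7b were Rgs20 (0.0343) and its own relative Pde1b (0.0436). For Pde9a the closest were Gpr75 (0.0472) and Rcn1 (0.0713), and for Pde1c they were Triobp (0.0422) and Spg11 (0.0429). Caln1 (0.0204) and Fam171a1 (0.0276) were closest to Pde4b. Fes (0.0517) and Ppargc1a (0.0518) were closest to Pde4d, and Gm10421 (0.0787) and Efcab12 (0.0880) to Pde2a. For scale, the log2 level of Pde9a itself varied around its mean by 0.263 and that of Pde4b by 0.0960 on the same measure.

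For the other marker lists, the genes that passed are counted, where 18.3% of all genes passed (23.8% of those with a mean of at least 1 CPM). Oligodendrocyte genes summed to 6080 and 6036 CPM in B6 replicates 3 and 5, to 4181 to 4989 in the other B6 mice and to 3160 to 4628 in D2. Of these 8 genes 4 were lower in D2 with all mice, and 1 without B6 replicates 3 and 5, where 19.2% of all genes passed. These replicates also had the high Pde8a values. Red blood cell genes were lower for 3 of 5, but the globin genes did not move together. Hba-a2 (-5.47) and Hbb-bt (-1.27) passed, whereas Hba-a1 (0.08, edgeR adjusted p = 0.78) and Hbb-bs (-0.36, edgeR adjusted p = 0.13) did not. Alas2, the remaining gene of the list, was also lower (-0.59, edgeR adjusted p = 0.045), but its values overlapped between the strains. The list summed to 71.8 to 99.5 CPM in B6 and to 42.2 to 77.9 in D2. A shift in blood content and the reason for the uneven changes were not tested. Astrocyte genes had 1 higher and 2 lower of 6, microglia 1 and 1 of 6, endothelial and mural cells 1 lower of 6, choroid plexus and ependyma 1 lower of 5 (summed CPM 11.4 to 17.9 over all mice), and interneurons 0 of 6 with edgeR (1 at an unadjusted p under 0.05, and 1 with DESeq2). Counts of 1 of 6 or 1 of 5 are near the share of all genes and do not show that a list moved. No listed marker was at 0 in all 10 libraries, and the part of these cells in the phosphodiesterase levels was not tested.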

How the data were processed

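The deposited table holds raw read counts by gene, whole numbers that were not normalized. To make these counts the authors trimmed with fastp, mapped the libraries of both strains with STAR 2.7.10b to the Ensembl GRCm39 genome of B6, sorted with SAMtools 1.6, counted with featureCounts and removed genes with a median of 0. Libraries were stranded, but the strand setting of the counting is not stated, and the effect of the B6 reference on D2 counts was not tested. The authors' median, mean and zero-count columns were not used.

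Counts of 29883 genes (29519 in GENCODE M39) were fitted with edgeR 4.0.16 in R 4.3.3 (TMM, quasi-likelihood F test, two-sided, no covariate, Benjamini-Hochberg over all genes, threshold 0.05) with no further filter. A standard error is the size of the log2 fold change over the root of its F statistic. CPM use TMM library sizes, and 0.5 was added for log2 profiles and marker covariates. Alternatives were DESeq2 1.42.0, other scalings and filters, the replicate number as a block, marker levels as covariates and leaving out each mouse. Leaving out B6 replicates 3 and 5 together was added after seeing the data. No 2 libraries of a strain agreed within sampling noise (lowest mean chi-square 4.89 per gene, B6 replicates 3 and 5). This pair was closer than any other, since the next lowest value was 17.5 (D2 replicates 3 and 5). Against the other B6 mice, B6 replicates 3 and 5 gave 85.5 to 119. Why this pair was so alike was not tested. The fits were tested on simulated data.

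The 9 genes and all lists were chosen with earlier results of these data known. Named besides them are other phosphodiesterase genes that passed or lead in level, up to 4 passing genes per pathway list with the largest change, the 2 closest profiles of each passing member and overlapping genes. Depth ran from 96977262 to 116776714 counted reads per library, so that the spread between mice, not counting error, sets the precision for the 9 genes.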

Additional observations from a re-analysis of the deposited data

Results flagged for a closer look

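Within each strain, the 15 phosphodiesterase genes named with values (the 9 genes and Pde1b, Pde5a, Pde6d, Pde6h, Pde8a and Pde10a) were examined for a mouse far from the other 4 of its strain (Dixon's ratio, 95% level), which makes 30 groups, and 3 were found. Chance alone gives about 1 in 20 such groups. Pde1a had 16136 normalized counts in B6 replicate 1, where the other B6 mice lay between 13894 and 14501. Pde4d had 6617 in D2 replicate 1, against 5112 to 5533 in the other D2 mice, and its strain difference did not pass without that mouse. Pde6h had 97 in B6 replicate 2, against 63.0 to 72.0 in the other B6 mice. The high B6 values of Pde4a (replicates 3 and 5) are a pair and cannot be found by a rule for single mice.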

How the results depend on the processing

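Among the 9 genes, 6 passed in the reported fit, and between 5 and 6 with 1 mouse left out. With the striatal marker level as a covariate 3 passed, 1 higher and 2 lower in D2. Part of the striatal markers were themselves lower in D2, so this covariate is not independent of strain. The number higher in D2 was 1 in place of 2 with DESeq2 size factors in edgeR, filterByExpr or at least 10 counts in every sample, since Pde4d then had adjusted p of 0.051, 0.053 and 0.051, and it lay between 1 and 2 with 1 mouse left out. The number lower was 4 under these settings and in every fit with 1 mouse left out. Signs turned only under the striatal covariate, for Pde4a (-0.18) and Pde8b (0.16). With the cortical covariate, 9 in place of 5 other phosphodiesterase genes and 27 in place of 12 pathway genes passed, while the count among the 9 genes was 6 and all genes called rose from 5478 to 7810 (18.3% to 26.1%). With 1 mouse left out these counts lay between 4 and 6 and between 10 and 13, and those of all genes between 4636 and 5676. Without B6 replicates 3 and 5, 4 other phosphodiesterase genes and 18 pathway genes passed. The cause of these shifts was not tested. With the longest transcript as the length, 4 of the 9 genes kept their rank in level.
The replicate numbers of the labels were not taken to pair the mice. The correlation of deviations between same-numbered mice ran from -0.45 to 0.40, and 2 of 10 libraries correlated best with their own number. Because B6 replicates 3 and 5 stood apart from the other B6 mice, these values cannot show whether same-numbered mice were processed together. With the replicate block, 6 of the 9 genes and 4731 of all genes passed. Scaled to total counts, 45.04% of calls were on the lower side in D2, against 53.6% with TMM, and the median of all genes shifted by 0.031.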

Other observations

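The genes around each phosphodiesterase gene (within 1 Mb of either end, the gene itself left out) differed in how many passed the strain comparison, against 18.3% of all genes. Around Pde2a 24 of 57 passed (42.1%), 10 higher and 14 lower in D2. Around Pde4d 7 of 21 passed (33.3%), of which 6 were lower, whereas Pde4d itself was higher. Around Pde9a 14 of 59 passed (23.7%), 10 of them higher. Around Pde4a 3 of 89 passed (3.37%). Around Pde7b, Pde4b, Pde1c, Pde1a and Pde8b the share lay between 11.5% and 22.2%. Neighboring genes share a haplotype and are not independent, and no test was made.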
